A study of Mus musculus with 2 samples.

Results

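Integrins are the cell surface receptors that anchor cells to the extracellular matrix, and laminins, nidogens, perlecan and agrin are the glycoproteins of the basement membrane that many of them bind. The genes described here are those whose symbols name an integrin alpha or beta subunit or a laminin alpha, beta or gamma chain, together with Nid1, Nid2, Hspg2 and Agrn. This rule on symbols, which uses no measured value, selected 43 of the 43346 annotated genes: 18 integrin alpha genes, 9 integrin beta genes, the beta-like gene Itgbl1, 11 laminin genes and 4 linkers. Itgbl1 matches by its name but encodes a secreted protein that is no integrin subunit, so it was left out of the sums over subunits.

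The genes were measured by RNA sequencing of polyA RNA longer than 200 nt from subcutaneous fat pads, the white adipose depot under the skin. The series holds a single group of 2 libraries, replicates 1 and 2, from C57BL/6J mice of 8 weeks. Both libraries are labelled as a pool of male and female littermates, as separate tissue samples, and as derived from a shared donor record, so the spread between them is that between pooled samples and not between single animals. The label of both sexes was at odds with the counts of 4 Y-linked genes (Uty, Ddx3y, Eif2s3y, Kdm5d), which summed to 6 in replicate 1 and 4 in replicate 2, beside 27542 and 19359 counts of their X-linked counterparts. There is no second condition; the replicates were compared with each other, and differences are given as replicate 1 over replicate 2. With 1 library on each side no p-value was computed, and every interval covers counting error only.

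Basement membranes are thin matrix sheets around adipocytes, smooth muscle, nerves and vessels and beneath epithelia and mesothelia. A laminin is a trimer of an alpha, a beta and a gamma chain, and its alpha chain carries the main binding site for integrins; nidogen and perlecan tie the laminin network to that of type IV collagen. An integrin is a pair of an alpha and a beta subunit, and the pair sets the ligand: laminin, collagen, proteins with the RGD tripeptide, or counter-receptors on other cells. In fat, each adipocyte is wrapped in its own basement membrane.

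Libraries held 54752739 estimated counts in replicate 1 and 58687668 in replicate 2, of which the 43 genes took 0.627% and 0.541% of the counts of annotated genes. The tissue label was compared with 6 adipocyte genes, which mark fat but do not tell its depots apart. All were detected in both libraries, with a summed TPM (a relative transcript level, corrected for transcript length) of 5835 in replicate 1 and 22513 in replicate 2. The depot itself was not tested. The libraries stood apart in other markers too. Summed TPM of 6 epithelial genes was 341 in replicate 1 and 3.05 in replicate 2, of 6 uterine genes 239 and 2.69, of 6 smooth muscle and pericyte genes 5158 and 726, and of 6 endothelial genes 328 and 505. The 4 mesothelial genes, all at 1 TPM or more in both libraries, summed to 267 TPM in replicate 1 and 57.1 TPM in replicate 2. These differences stand beside every ratio below, and their part in those ratios was not tested. In such bulk tissue, fewer cells of a type and less RNA per cell cannot be told apart.

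Of the 43 genes, 36 reached 1 TPM in each library, against 29.4% of all annotated genes. The other 7 were Itga2, Itga8, Itgad, Itgb6, Itgb8, Itgb2l and Lama1. The level spanned from 335 ± 6.48 TPM for Nid1 to 0.015 ± 0.021 TPM for Itgb2l (mean ± SD, n = 2). Summed over the genes, TPM was 1884 in replicate 1 and 1606 in replicate 2. The 15 laminin and linker genes made up 1284 and 1074 of these, and the 27 integrin subunit genes 598.9 and 530.4.

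**Figure D1:**
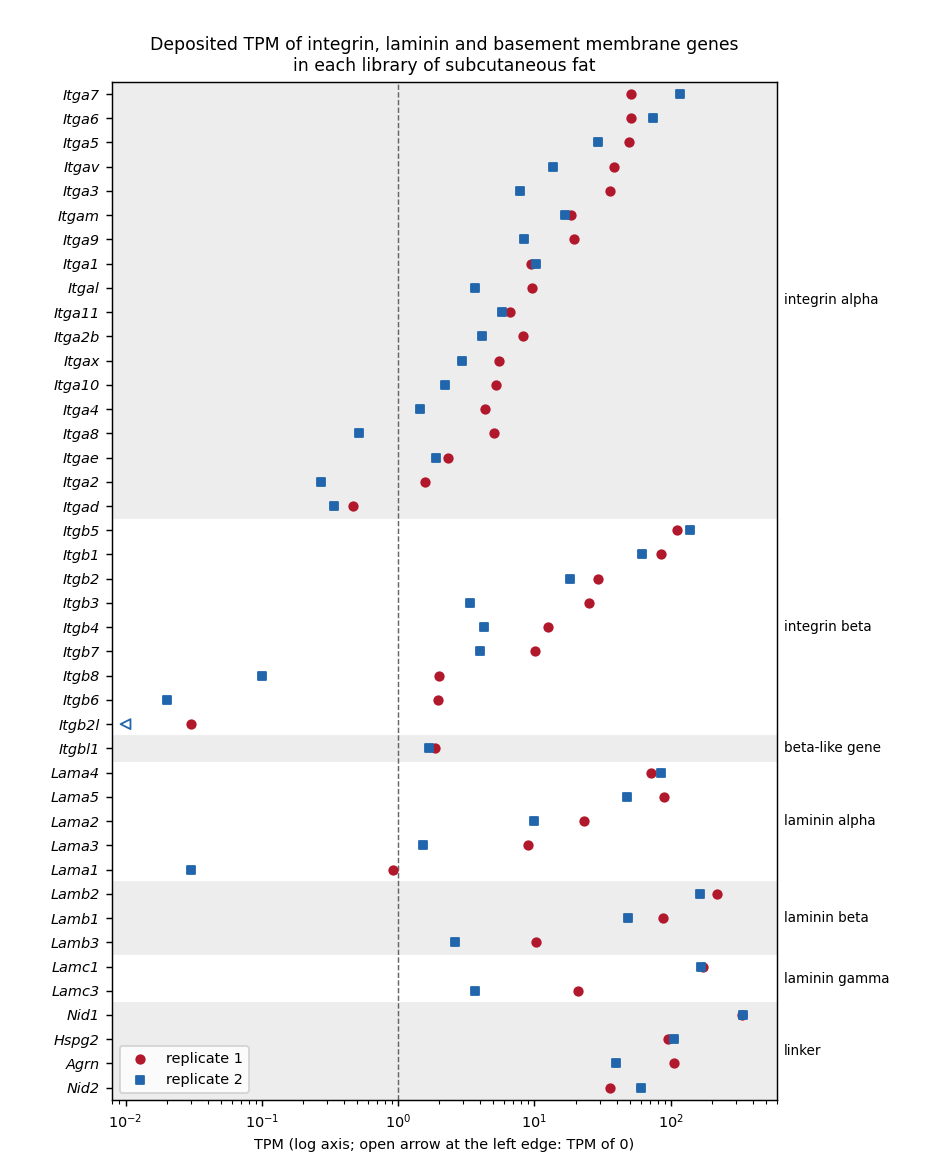
Deposited TPM on a log axis for 42 of the 43 genes, ordered by class and then by mean; circles are replicate 1 and squares replicate 2, the dashed line marks a TPM of 1, and an open arrow marks a TPM of 0. Nid1 is highest at 331 TPM in replicate 1 and 339.8 TPM in replicate 2, and Itgb8, Itgb6 and Lama1 show the widest gaps.

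The linkers held the highest single level. Nid1 (chr13:13437551-13512269, GRCm38), which encodes nidogen-1, a rod-shaped protein that binds the laminin gamma1 chain and type IV collagen, had 331 TPM in replicate 1 and 339.8 TPM in replicate 2. Its relative Nid2, nidogen-2, had 35.7 TPM in replicate 1 and 60.1 TPM in replicate 2. Nid1 thus stood above Nid2 in both libraries. Hspg2, which encodes perlecan, a heparan sulfate proteoglycan that stores growth factors, had 96.1 TPM in replicate 1 and 105 TPM in replicate 2. Agrn, which encodes agrin, known for clustering acetylcholine receptors at the neuromuscular junction, had 105 TPM in replicate 1 and 39.5 TPM in replicate 2. Hspg2 and Agrn changed places between the libraries, so their order does not hold beyond their spread.

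Among the laminin alpha chains, which decide what receptors a laminin binds, Lama4 and Lama5 led. Lama4, the chain of vessel and fat laminins, had 71.9 TPM in replicate 1 and 84.3 TPM in replicate 2. Lama5, a broadly expressed chain of epithelia and vessels, had 88.7 TPM in replicate 1 and 47.7 TPM in replicate 2. Lama5 took the larger share of alpha chain TPM in replicate 1 (45.8%, against 37.1% for Lama4) and Lama4 the larger in replicate 2 (58.8%, against 33.3% for Lama5), so neither led in both. Lama2, the chain of muscle and nerve laminins, followed with 23.1 TPM in replicate 1 and 9.88 TPM in replicate 2. Lama3, the alpha chain of an epithelial laminin, had 9.0 TPM in replicate 1 and 1.52 TPM in replicate 2. Lama1, the chain of the main embryonic laminin, was lowest in both libraries, with 0.91 and 0.03 TPM.

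The beta and gamma classes each had a leader that held in both libraries. Lamb2, whose chain is prominent at synapses, in muscle and in the kidney filter, had 218 TPM in replicate 1 and 164 TPM in replicate 2, which was 72.7% ± 5.08 of beta chain TPM (SD, n = 2). Lamb1, the other widely used beta chain, had 87.0 TPM in replicate 1 and 48.3 TPM in replicate 2, and Lamb3, the epithelial beta chain, had 10.3 TPM and 2.59 TPM. Lamc1, the gamma chain of most laminins, had 171 TPM in replicate 1 and 167 TPM in replicate 2, or 89.6% ± 9.96 of gamma chain TPM. Lamc3, a gamma chain of more restricted expression, had 20.9 TPM in replicate 1 and 3.69 TPM in replicate 2. Lamc1 led the gamma chains in both libraries.

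Of the integrin beta subunits, Itgb5 and Itgb1 held the most. Itgb5, which pairs with alpha v as a receptor of vitronectin, had 112 TPM in replicate 1 and 139 TPM in replicate 2, or 50.3% ± 14.2 of beta subunit TPM. Itgb1, the partner of all laminin and collagen receptor alphas of this family, had 84.9 TPM in replicate 1 and 61.5 TPM in replicate 2. Itgb5 exceeded Itgb1 in both libraries. Itgb2, the beta subunit of leukocyte integrins, had 29.1 TPM in replicate 1 and 18.1 TPM in replicate 2, and Itgb3, which pairs with alpha v or the platelet alpha IIb, had 24.9 TPM and 3.38 TPM. Itgb4, the partner of alpha 6 in the hemidesmosomes of epithelia, had 12.6 TPM in replicate 1 and 4.25 TPM in replicate 2, and Itgb7, a subunit of lymphocyte homing receptors, had 10.1 TPM and 3.96 TPM. Itgb8 and Itgb6, which pair with alpha v and release active TGF-beta from its latent complex, had 2.01 and 1.97 TPM in replicate 1 and 0.10 and 0.02 TPM in replicate 2. Itgb2l, a relative of the leukocyte subunit, had 3 counts in replicate 1 and 0 in replicate 2, which is no more than the limit of 3 counts that a count of 0 allows.

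The laminin receptor alphas led their class. Itga7, the laminin receptor best known from muscle, had 50.7 TPM in replicate 1 and 117 TPM in replicate 2. Itga6, which pairs with beta 1 or beta 4, had 50.9 TPM in replicate 1 and 73.6 TPM in replicate 2. The pair was level in replicate 1, and Itga7 stood higher in replicate 2, where it took 39.1% of alpha subunit TPM, against 15.7% in replicate 1. Itga3, a receptor of the epithelial laminin and of those with alpha 5, had 36.1 TPM in replicate 1 and 7.80 TPM in replicate 2. Together the 3 laminin receptor alphas had 138 TPM in replicate 1 and 199 TPM in replicate 2, of 322 TPM and 299.9 TPM for the whole class.

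The receptors of RGD proteins came next. Itga5, the fibronectin receptor, had 49.6 TPM in replicate 1 and 29.2 TPM in replicate 2, and Itgav, the partner of several beta subunits, had 38.1 TPM and 13.6 TPM. Itga8, a receptor of nephronectin, had 5.02 TPM in replicate 1 and 0.52 TPM in replicate 2, and Itga2b, the platelet fibrinogen receptor, had 8.23 TPM and 4.14 TPM. Itga5 led this group in both libraries. The collagen receptors were low: Itga1, which binds type IV collagen, had 9.46 TPM in replicate 1 and 10.2 TPM in replicate 2, and Itga11, a fibroblast receptor of fibrillar collagen, had 6.60 TPM and 5.82 TPM. Itga10, found mainly in cartilage, had 5.24 TPM in replicate 1 and 2.19 TPM in replicate 2, and Itga2, an epithelial and platelet receptor, had 1.58 TPM and 0.27 TPM.

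Alphas of leukocyte integrins summed to 36.5 TPM in replicate 1 and 25.6 TPM in replicate 2. Itgam, the macrophage and neutrophil subunit, made up most of this, with 18.6 TPM in replicate 1 and 16.7 TPM in replicate 2. The lymphocyte subunit Itgal had 9.58 TPM in replicate 1 and 3.69 TPM in replicate 2, the dendritic cell subunit Itgax 5.47 TPM and 2.96 TPM, the mucosal lymphocyte subunit Itgae 2.33 TPM and 1.90 TPM, and Itgad 0.47 TPM and 0.34 TPM. Itgam was thus the highest of these in both libraries. Among the remaining alphas, Itga9, a receptor of tenascin-C, had 19.6 TPM in replicate 1 and 8.38 TPM in replicate 2, and Itga4, a receptor of VCAM-1 and fibronectin, had 4.33 TPM and 1.45 TPM. Itgbl1 had 1.87 TPM in replicate 1 and 1.67 TPM in replicate 2.

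**Figure D2:**
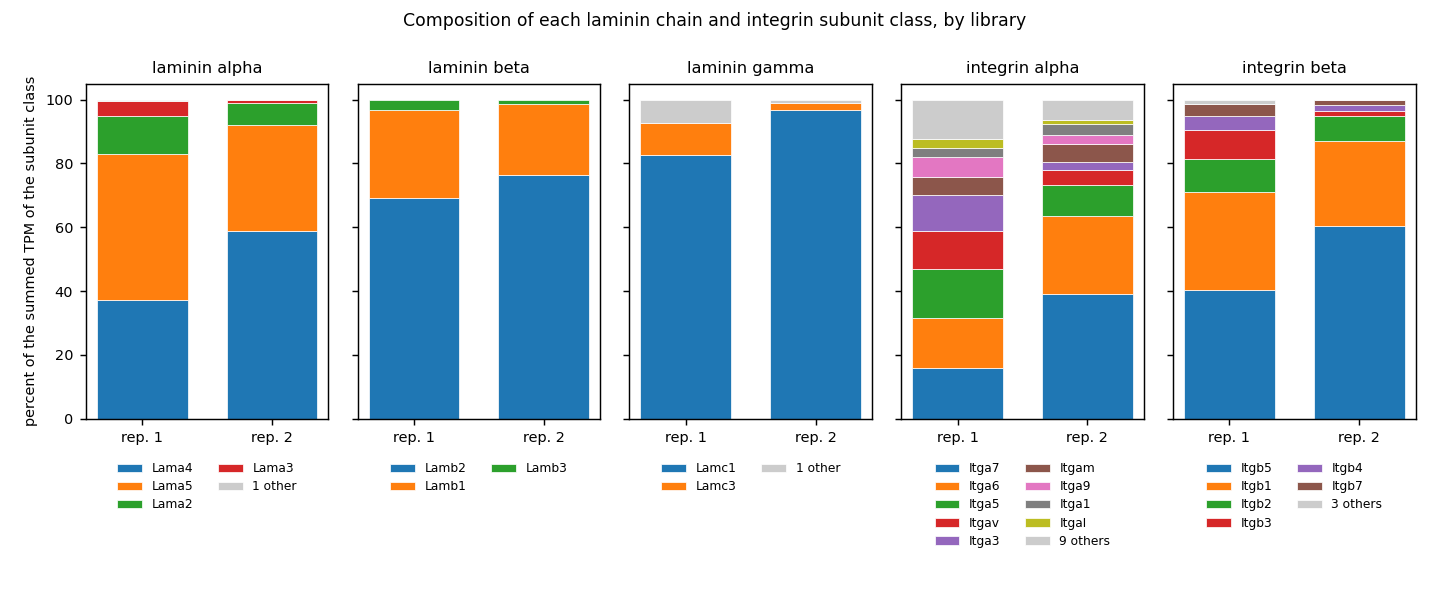
Percent of the summed TPM of each laminin chain or integrin subunit class taken by each gene, with replicate 1 as the left and replicate 2 as the right bar of each pair; genes not named in the legend are joined in grey. Lamb2, Lamc1 and Itgb5 lead in both bars of their class, while Lama5 and Lama4 change places.

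Gene TPM is a sum over annotated transcripts, and short transcripts bear on it. For 10 of the 43 genes, transcripts under 1000 bases held more than 20% of the gene's TPM. For Hspg2, a spliced fragment of 820 bases (Hspg2-202) had 26.1 TPM in replicate 1 and 53.8 TPM in replicate 2, though it held 1.59% and 4.35% of the gene's counts, and the full transcript Hspg2-201 of 14187 bases had 49.2 TPM and 35.96 TPM. The same held for Lama5, where transcripts under 1000 bases held 52.4% of TPM and 3.01% of counts, and for Itgav, with 68.8% of TPM and 10.2% of counts. With each gene taken as the transcript that holds most of its counts, Lama4 took 49.2% ± 16.3 of alpha chain TPM, Lamb2 68.2% ± 8.14 of beta chain TPM, Lamc1 86.2% ± 12.8 of gamma chain TPM, Itga7 36.7% ± 19.97 of alpha subunit TPM and Itgb5 53.2% ± 13.8 of beta subunit TPM (SD, n = 2). The leaders of the 5 classes were thus the same by either measure, averaged over the libraries.

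The replicates differed in many of these genes. Ratios were taken from rounded expected counts scaled with TMM factors, which set the bulk of genes level, so a ratio can differ in direction from the TPM, as it did for Itgb1. A call of over 2-fold apart required a mean scaled count of 100 or more and a 95% counting interval wholly beyond 2-fold. Of the 41 genes that reached that count, 14 were called (34.1%), against 23.1% of the 13403 genes tested. Higher in replicate 1 were 11 genes, 26.8% of the 41 against a background of 12.5%, and higher in replicate 2 were 3 genes, 7.32% against 10.6%. Itgad and Itgb2l lay below the count minimum. The median log2 ratio was 0.44 for the 26 integrin genes tested, Itgbl1 included, and 0.44 for the 15 laminin and linker genes, against -0.04 for all genes tested.

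How many genes lay past 2-fold on each side moved with the scaling. Scaling by total count moved the median of all genes to 0.48 and scaling by spike-in RNA to 0.42, and the calls then split into 17 genes higher in replicate 1 and 1 in replicate 2 by total count, and 16 and 1 by spike-in RNA. Over all genes tested the share called higher in replicate 1 was then 22.3% by total count and 20.9% by spike-in RNA, and the share called higher in replicate 2 was 4.40% and 4.88%. Of the calls among the 43 genes, 78.6% were higher in replicate 1 with TMM factors, 94.4% by total count and 94.1% by spike-in RNA, and over all genes these shares moved too, with 54.2%, 83.5% and 81.1%. All 11 genes higher in replicate 1 kept that call under both, whereas of the 3 higher in replicate 2 only Itga7 did, and Itga6 and Nid2 kept their direction but no longer lay wholly beyond 2-fold. The log2 ratios shifted towards replicate 1 by 0.51 by total count and 0.46 by spike-in RNA. Calls in the lists of other genes and markers below are given with TMM factors only. Those close to 2-fold on the replicate 2 side may not hold under the other scalings.

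**Figure D3:**
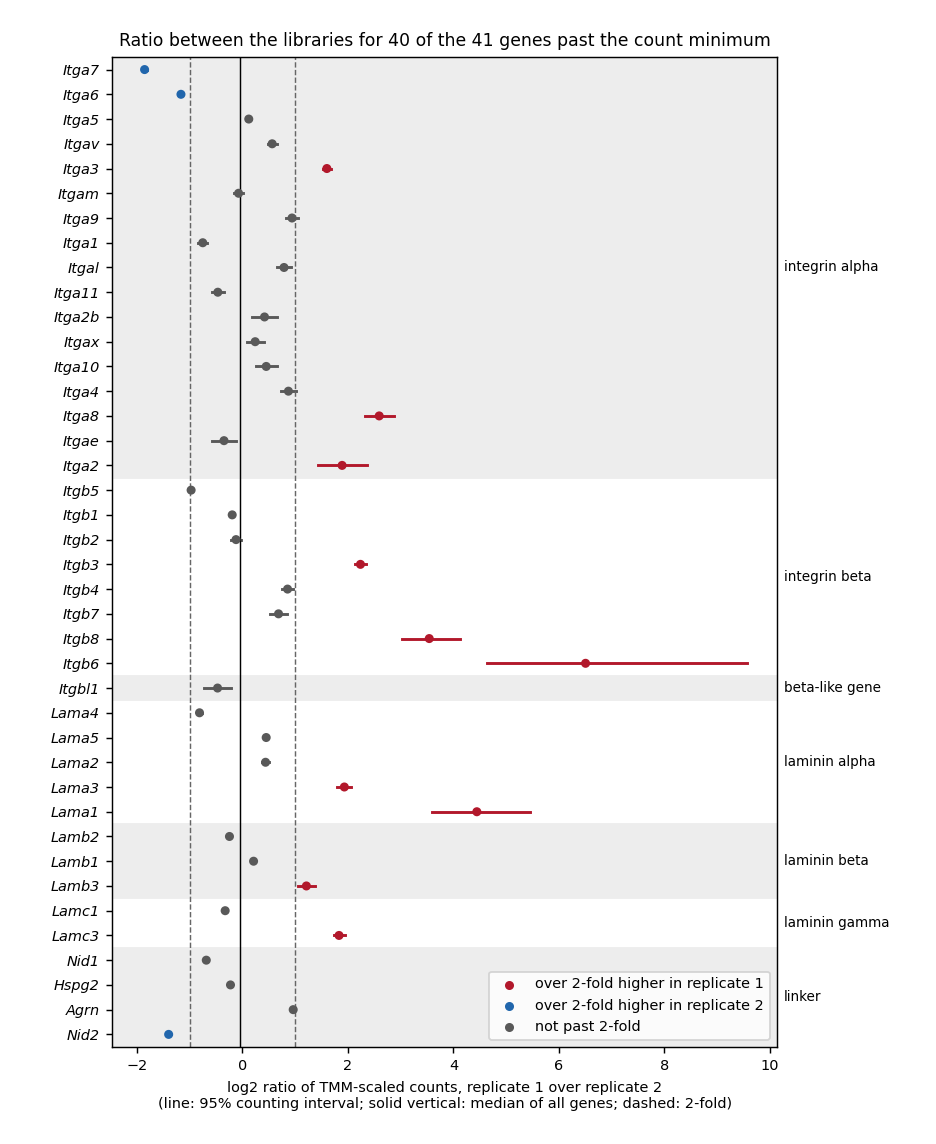
Log2 ratio of TMM-scaled counts, replicate 1 over replicate 2, for 40 of the 41 genes that reached the count minimum, with lines for the 95% counting interval, dashed lines at 2-fold and a solid line at the median of all genes tested. The 10 red points lie wholly right of 2-fold and the 3 blue points, Itga7, Itga6 and Nid2, wholly left of it.

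Laminin genes with calls lay on the replicate 1 side. Lama3, the epithelial alpha chain, had 2868 counts in replicate 1 and 564 in replicate 2, a 3.82-fold higher scaled level in replicate 1 (95% counting interval 3.49 to 4.19), and for Lamb3 the counts were 1430 and 463 (2.32-fold, 2.09 to 2.58). Beyond these, Lama1 had 319 counts in replicate 1 and 11 in replicate 2 (21.8-fold, 12.01 to 44.1), and Lamc3 4302 and 907 (3.56-fold, 3.31 to 3.83). In all, 5 of the 11 laminin genes were called. The other 6, which were also the 6 of highest level, lay within 2-fold, from Lama4 at a log2 ratio of -0.81 to Lama5 at 0.45. The epithelial markers Cdh1 and Epcam, at 58.8 and 35.6 TPM in replicate 1 and 0.11 and 0.09 TPM in replicate 2, were also higher in replicate 1. Their ratios, 334-fold and 262-fold, were far wider than those of Lama3 and Lamb3. The keratins of the epithelial list that reached the count minimum were over 2-fold higher in replicate 1. Of the keratins below the count minimum, Krt14, the keratin of the epidermal base, was at 0.22 and 0.09 TPM, and Krt5 at 2.80 and 0.05 TPM.

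Integrins on the replicate 1 side were Itgb6, Itgb8, Itga8, Itgb3, Itga2 and Itga3. Itgb6 had 242 counts in replicate 1 and 2 in replicate 2, a ratio of 90.9 (24.9 to 755). Its deposited credibility bounds, 2.07 to 7.11 TPM in replicate 1 and 0.132 to 4.79 TPM in replicate 2, overlap, and the deposited TPM of 1.97 and 0.02 lie below them. Itgb8 had 481 counts in replicate 1 and 31 in replicate 2 (11.7-fold, 8.10 to 17.3), and Itga8 had 1021 and 127 (6.04-fold, 5.02 to 7.32). Itgb8, Itgb6 and Itga8 were the integrins with the widest ratios. Itgb3 had 5217 counts in replicate 1 and 830 in replicate 2 (4.72-fold, 4.39 to 5.08), while its partners lay within 2-fold: Itgav at 1.48-fold (1.39 to 1.57) and Itga2b at 1.34-fold (1.14 to 1.58). Itga2 had 237 counts in replicate 1 and 48 in replicate 2 (3.71-fold, 2.71 to 5.17), and Itga3 5926 and 1466 (3.04-fold, 2.87 to 3.22). Platelet markers, whose cells carry Itgb3 with Itga2b, were at a summed 59.4 TPM in replicate 1 and 53.7 TPM in replicate 2, with neither of the 2 tested over 2-fold apart. Pf4 made up most of that sum, at 56.0 and 50.8 TPM, whereas Gp9 was at 0.13 and 0.31 TPM and Gp1ba at 0.01 and 0 TPM. The part of platelets in the Itgb3 ratio was not tested.

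On the replicate 2 side, Itga7 had 7237 counts in replicate 1 and 19635 in replicate 2, a 3.61-fold higher scaled level in replicate 2 (3.52 to 3.71). Nid2 had 6266 counts in replicate 1 and 12393 in replicate 2 (2.63-fold higher in replicate 2, 2.55 to 2.72), and Itga6 5690 and 9573 (2.24-fold higher in replicate 2, 2.17 to 2.32). Of the 3 laminin receptor alphas, then, Itga7 and Itga6 were higher in replicate 2 and Itga3 in replicate 1. All 6 adipocyte markers were over 2-fold higher in replicate 2, from 3.46-fold for Plin1 to 17.2-fold for Lep. With TMM factors, so were 3 of 6 endothelial markers, Cdh5, Pecam1 and Tie1, at 2.55-fold to 2.74-fold. For smooth muscle, where Itga7 is known to be expressed, the myosin gene Myh11 was at 190.5 TPM in replicate 1 and 14.5 TPM in replicate 2. Of the 6 smooth muscle and pericyte markers, 4 were over 2-fold higher in replicate 1, and Rgs5 was 1.63-fold higher in replicate 2, within the bound. Which cells carried the Itga7 ratio was not tested.

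Just past the bound, and so called, stood Lamb3, with an interval that began at 2.09, and Itga6, at 2.17. Just short of it, and not called, were Agrn at 1.95-fold (1.90 to 2.00) and Itga9 at 1.92-fold (1.78 to 2.07), both higher in replicate 1, and Itgb5 at 1.96-fold higher in replicate 2 (1.92 to 2.01). Agrn, Itga9, Itga4, Itgb4 and Itgal passed the bound under total count and spike-in scaling, and Itgb7 under total count scaling. Nid1, Lamc1, Lamb2, Hspg2 and Itgb1, which form the bulk of the counts, lay within 2-fold, between 1.14-fold and 1.61-fold higher in replicate 2. For all of these but Nid1 the direction turned under total count and spike-in scaling.

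Transcripts of the same gene did not always move together. The deposited transcript tables split a gene's counts by a model, and the transcripts of a gene share most of their bases, so the split is less sure than the sum; counting intervals do not cover it. Of 23 genes with at least 2 transcripts past the count minimum, Itgb4 and Lamb3 had transcripts over 2-fold apart in opposite directions. How often this occurs over all genes was not counted.

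Itga3 has alternative starts 7.52 kb apart on the minus strand of chromosome 11. Itga3-201, from the upstream start at position 95076714 (GRCm38), had 28.7 TPM in replicate 1 and 3.85 TPM in replicate 2 (4.76-fold higher by scaled count in replicate 1, 4.42 to 5.14). Itga3-202, from the downstream start at position 95069198, had 5.24 TPM in replicate 1 and 3.15 TPM in replicate 2, with overlapping credibility bounds of 2.91 to 7.45 and 2.27 to 4.03 TPM. Itga3-201 thus held 79.4% of the gene's TPM in replicate 1 and 49.4% in replicate 2. These transcripts also differ in exon number, 26 for Itga3-201 and 25 for Itga3-202, and the starts of the gene's other transcripts were not examined. Whether the libraries differed in the use of the starts was therefore not tested. The 250 bases before each start, from RefSeq on GRCm38.p6, are shown because the libraries differed in the split between these transcripts. Capitals mark matches, on either strand, to the GC box GGGCGG and the CCAAT box CCAAT; the TATA box TATAAA and the AP-1 motif TGANTCA were also searched. No motifs overlap here.
Itga3-201, chr11:95076715-95076964, minus strand: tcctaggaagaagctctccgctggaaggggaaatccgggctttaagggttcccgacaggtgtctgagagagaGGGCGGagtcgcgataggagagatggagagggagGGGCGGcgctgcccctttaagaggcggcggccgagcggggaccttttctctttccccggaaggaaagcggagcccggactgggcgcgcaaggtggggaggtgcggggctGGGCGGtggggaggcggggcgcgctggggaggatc
Itga3-202, chr11:95069199-95069448, minus strand: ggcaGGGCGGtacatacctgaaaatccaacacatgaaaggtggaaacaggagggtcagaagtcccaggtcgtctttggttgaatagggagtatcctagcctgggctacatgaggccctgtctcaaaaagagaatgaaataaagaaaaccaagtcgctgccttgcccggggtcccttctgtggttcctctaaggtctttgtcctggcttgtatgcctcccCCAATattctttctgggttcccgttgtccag

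The upstream window was 67.6% G and C with 22 CG dinucleotides, and held 3 GC boxes. The downstream window was 50.8% G and C with 5 CG dinucleotides, and held 1 GC box and 1 CCAAT box. Of all RefSeq windows of this length, 32.7% (of 32851) held a GC box, 33.8% a CCAAT box, 12.4% a TATA box and 6.75% an AP-1 motif. Of the 43 genes, 28 matched the table, with 32 windows, of which 14 held a GC box, 6 a CCAAT box, 0 a TATA box and 1 an AP-1 motif. These matches describe letters in the window and are not sites.

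Lamb3 is transcribed from starts 94.3 kb apart on the plus strand of chromosome 1. Lamb3-201, from position 193301993, had 8.84 TPM in replicate 1 and 0.44 TPM in replicate 2 (12.8-fold higher by scaled count in replicate 1, 10.1 to 16.4). Lamb3-209, from position 193207725, had 0.85 TPM in replicate 1 and 1.71 TPM in replicate 2 (3.15-fold higher by scaled count in replicate 2, 2.59 to 3.84). The 2.32-fold ratio of the gene therefore joined transcripts with opposite ratios. The window shown lies before the RefSeq start, 1 base downstream of the Lamb3-201 start, so its last base is that transcript's first. It is printed because the level of Lamb3-201 carried the gene's difference, and it held none of the 4 motifs, so nothing is in capitals.
Lamb3-201, chr1:193301744-193301993, plus strand: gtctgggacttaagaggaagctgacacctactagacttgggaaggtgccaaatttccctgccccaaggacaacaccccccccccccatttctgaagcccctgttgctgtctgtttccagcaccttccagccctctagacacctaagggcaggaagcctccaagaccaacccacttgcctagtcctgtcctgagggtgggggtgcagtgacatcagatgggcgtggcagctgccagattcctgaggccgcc

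Itgb4 differed in an exon as well as a start. Itgb4-202 had 8.82 TPM in replicate 1 and 0.74 TPM in replicate 2 (7.69-fold higher by scaled count in replicate 1, 6.57 to 9.03). Itgb4-204, which starts 5′ of it and includes an extra coding exon of 159 bases, had 1.85 TPM in replicate 1 and 3.08 TPM in replicate 2 (2.60-fold higher by scaled count in replicate 2, 2.30 to 2.94). Itgb4-210, which also keeps that exon but lay below the count minimum, went the other way, with 0.85 TPM in replicate 1 and 0.10 TPM in replicate 2. Summed over the transcripts that span this stretch, those with the exon held 22.6% of TPM in replicate 1 and 77.0% in replicate 2. The exon, at chr11:116005897-116006055 on the plus strand of GRCm38, is shown in capitals between 30 bases of each neighbouring exon, from the GENCODE release M21 transcript, since its share turned between the libraries.
Itgb4-204: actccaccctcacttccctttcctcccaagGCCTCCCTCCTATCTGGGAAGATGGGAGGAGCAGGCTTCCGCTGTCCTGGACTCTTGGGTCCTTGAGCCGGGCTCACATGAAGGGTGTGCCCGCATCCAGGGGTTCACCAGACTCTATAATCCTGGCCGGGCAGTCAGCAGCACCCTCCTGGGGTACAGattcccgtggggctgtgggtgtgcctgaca

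The laminin receptor alpha 6 has a pair of cytoplasmic tails, A and B, which arise when an exon of 130 bases is kept or skipped. Itga6-201, which keeps the exon and codes for the A tail, had 14.7 TPM in replicate 1 and 21.1 TPM in replicate 2. Itga6-202, which skips it and codes for the B tail, had 4.77 TPM in replicate 1 and 4.42 TPM in replicate 2. Form A therefore held 79.1% ± 5.04 of the TPM of these transcripts (SD, n = 2) and was the higher form in both libraries. Another transcript, the annotated non-coding Itga6-203 with a longer last exon, held 47.1% of the gene's TPM in replicate 1 and 56.2% in replicate 2. It was left out of the share above because it is annotated as non-coding, and whether it keeps or skips the exon was not examined. Both forms are printed from the last 30 bases of the exon they share, in lower case, into the coding bases of their tails, in capitals, at chr2:71853534-71853638 for A and chr2:71855854-71856012 for B (plus strand, GRCm38, GENCODE release M21).
Itga6-201, tail A: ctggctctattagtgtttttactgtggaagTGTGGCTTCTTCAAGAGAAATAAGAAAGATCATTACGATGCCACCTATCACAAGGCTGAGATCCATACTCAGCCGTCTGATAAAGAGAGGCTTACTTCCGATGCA
Itga6-202, tail B: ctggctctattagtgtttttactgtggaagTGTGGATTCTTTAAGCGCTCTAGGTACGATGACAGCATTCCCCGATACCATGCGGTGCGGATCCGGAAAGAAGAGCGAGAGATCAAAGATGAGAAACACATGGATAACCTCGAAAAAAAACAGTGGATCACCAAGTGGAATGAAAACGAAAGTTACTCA

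**Figure D4:**
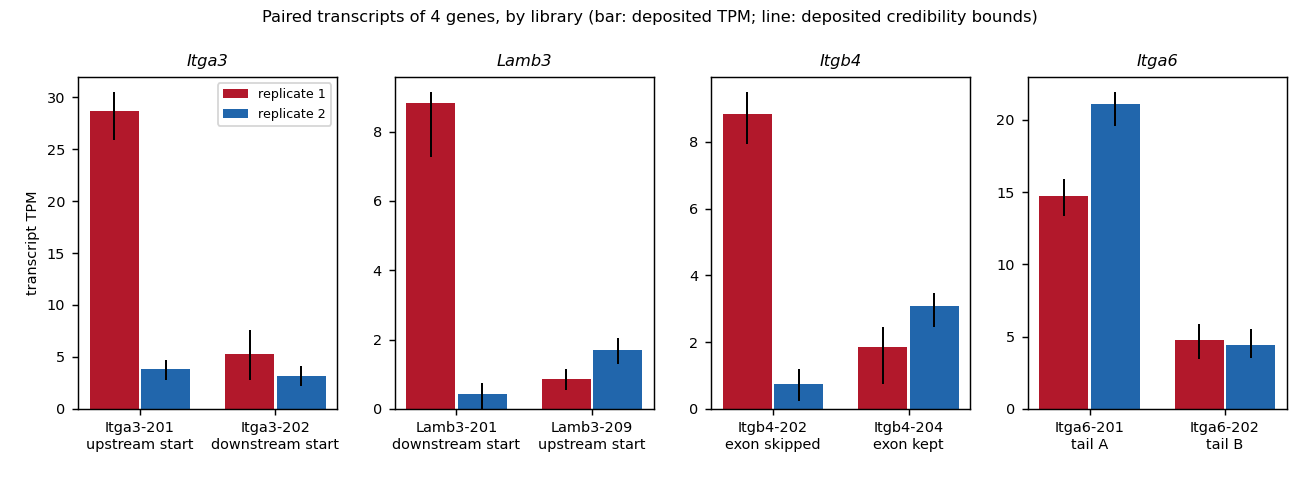
Deposited TPM of paired transcripts of Itga3, Lamb3, Itgb4 and Itga6 from an axis of 0, with replicate 1 as the left and replicate 2 as the right bar of each pair and lines for the deposited credibility bounds. Itga3-201, Lamb3-201 and Itgb4-202 are high in replicate 1 and low in replicate 2, and Itga6-201 exceeds Itga6-202 in both.

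Other transcripts were simpler. Itga7-201, Nid1-201 and Nid2-201 held all of their genes' counts in both libraries, and Itgb1-201 held 97.1% of its gene's TPM in replicate 1 and 100% in replicate 2. For agrin, the coding transcript Agrn-206 had 54.3 TPM in replicate 1 and 15.2 TPM in replicate 2, and Agrn-205, a transcript annotated as retaining an intron, had 39.8 TPM and 19.9 TPM. Agrn-206 held most of the counts in both libraries, at 70.1% and 59.9%.

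The rest of the basement membrane split in kind. All 24 further matrix genes passed the count minimum. With TMM factors, the replicate 1 level was over 2-fold higher for 12 and the replicate 2 level for 6, at a median log2 ratio of 1.00. Over all genes tested these calls took 12.5% and 10.6%. Sparc, a collagen-binding matrix protein, had 3908 TPM in replicate 1 and 8089 TPM in replicate 2, a 3.48-fold higher scaled level in replicate 2 (3.46 to 3.50). The widely used type IV collagen chains Col4a1 (284 TPM in replicate 1 and 434 TPM in replicate 2) and Col4a2 (208 and 341 TPM) were higher in replicate 2 by 2.39-fold and 2.57-fold, and the vessel-associated collagen Col15a1 (339.97 and 544 TPM) by 2.29-fold. Tinagl1 and Smoc1 were also higher in replicate 2, by 2.67-fold and 2.94-fold. The tissue-restricted chains Col4a3, Col4a4, Col4a5 and Col4a6 went the other way, by 2.53-fold to 12.9-fold higher in replicate 1; Col4a6 had 8.78 TPM in replicate 1 and 0.43 TPM in replicate 2. Npnt, which encodes nephronectin, the ligand of alpha 8, had 48.5 TPM in replicate 1 and 2.69 TPM in replicate 2 (10.7-fold higher in replicate 1, 9.57 to 11.9). The other genes higher in replicate 1 were Fbln1, Smoc2, Ntn1, Egflam, Frem1, Frem2 and Fras1, between 2.58-fold and 22.6-fold.

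With TMM factors, ligands of integrins outside the basement membrane divided more evenly. Of 15 that reached the count minimum, 4 passed 2-fold on the replicate 1 side and 5 on the replicate 2 side (median log2 ratio -0.12). The shares over all genes tested were 12.5% and 10.6%. Total count and spike-in scaling shift the ratios towards replicate 1, so the even split was not shown to hold under them. Fn1, fibronectin, was the highest by mean, with 649 TPM in replicate 1 and 254 TPM in replicate 2, within 2-fold; in replicate 2 Mfge8 lay above it. Higher in replicate 1 were Emilin1 (5.38-fold), Tnc (4.08-fold), the bone and immune ligand Spp1 (14.4-fold) and Cdh1, the E-cadherin bound by alpha E beta 7 (334-fold). Mfge8, a bridge to apoptotic cells bound by alpha v integrins, had 269 TPM in replicate 1 and 435 TPM in replicate 2 (2.53-fold higher in replicate 2), and Vwf, Icam2, Vtn and Ccn1 were also higher in replicate 2, by 2.23-fold to 2.60-fold.

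Inside the cell, integrin tails are linked to actin by adaptor proteins. Of these, 18 of 25 lay within 2-fold, with a median log2 ratio of -0.15. Over all genes tested 23.1% were called over 2-fold apart, so the adaptors lay near the share of all genes. The highest by mean were Actn4 (339 TPM in replicate 1 and 326 TPM in replicate 2) and the integrin-linked kinase gene Ilk (374 and 220.1 TPM), followed by Tns1 and Zyx; in replicate 2 Tns1 and Lims2 lay above Ilk, and Lims2 above Zyx. With TMM factors, 5 adaptors were higher in replicate 2, Tns1, Tns2, Tln2, Lims2 and Itgb1bp1, by 2.14-fold to 4.81-fold. Higher in replicate 1 were Actn1 (2.54-fold) and Fermt1, the kindlin of epithelia, with 11.1 TPM in replicate 1 and 0.02 TPM in replicate 2. The kindlin of most other tissues, Fermt2, had 81.1 TPM in replicate 1 and 64.5 TPM in replicate 2, and the leukocyte kindlin Fermt3 16.1 and 10.3 TPM.

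Laminin receptors other than integrins were led by Bcam, the Lutheran receptor of laminin alpha 5, with 154 TPM in replicate 1 and 116 TPM in replicate 2, then Dag1, dystroglycan, with 89.1 and 47.4 TPM, and the syndecans Sdc3 and Sdc1. Of the 11, 7 lay within 2-fold, where 23.1% of all genes tested were called beyond it. Sdc1, the epithelial syndecan, was 2.75-fold higher in replicate 1 (2.61 to 2.90), and the sarcoglycan Sgca was higher there too (2.59-fold). Sgcd, another sarcoglycan of the dystroglycan complex, was 4.22-fold higher in replicate 2.

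**Figure D5:**
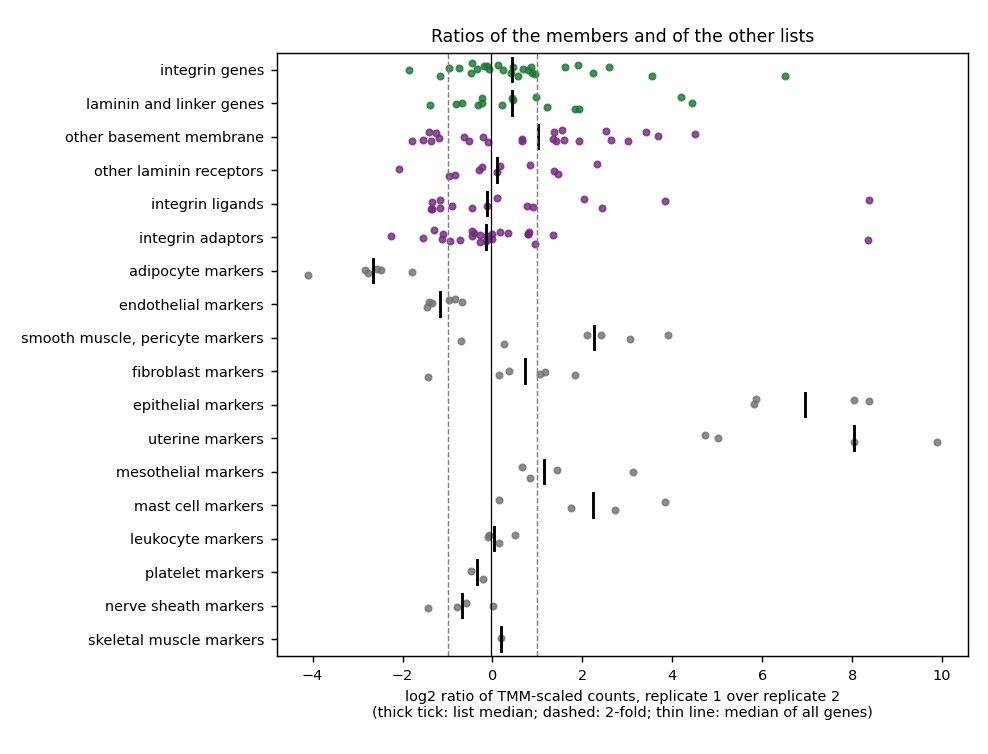
Log2 ratios of TMM-scaled counts, replicate 1 over replicate 2, for the tested integrin genes, laminin and linker genes, 4 lists of related genes and 12 lists of cell type markers; thick ticks are list medians and dashed lines mark 2-fold. Adipocyte markers lie left of -1 and the epithelial and uterine markers right of 4; the uterine marker Foxl2, with 0 counts in replicate 2, enters the median but has no point.

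The marker lists beside these ratios, called with TMM factors, moved as follows. For comparison, 12.5% of all genes tested were called higher in replicate 1 and 10.6% in replicate 2. All 6 adipocyte genes were higher in replicate 2 (median log2 ratio -2.66). All 4 epithelial genes tested and all 5 uterine genes tested were higher in replicate 1; in replicate 2 the uterine marker Foxl2 was at 0 counts and the epithelial marker Epcam at 7. Of 6 smooth muscle and pericyte genes 4 were higher in replicate 1, whereas the pericyte genes Pdgfrb and Rgs5 lay within 2-fold. Of the mast cell genes 3 of 4 tested were higher in replicate 1 (summed TPM 113 in replicate 1 and 14.2 in replicate 2), of the mesothelial genes 2 of 4 (267 and 57.1), and of the fibroblast genes 3 of 6, with 1 higher in replicate 2 (2319 and 959). Leukocyte genes lay within 2-fold in 4 of 4 tested (176 and 115), as did the skeletal muscle gene tested, Acta1 (list sum 212 and 116, with Myh4 at 0 in both). Of nerve sheath genes 1 of 4 was higher in replicate 2 (24.6 and 29.0).

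In the genome the 43 genes lie on 16 chromosomes, and 5 neighbouring pairs lie within 1000 kb of each other. Itgam, Itgax and Itgad stand in a row on chromosome 7 with gaps of 11.1 and 3.72 kb, yet had 18.6, 5.47 and 0.47 TPM in replicate 1 and 16.7, 2.96 and 0.34 TPM in replicate 2. Itga2 and Itga1, 21.0 kb apart on chromosome 13, differed in their ratios: Itga2 was 3.71-fold higher in replicate 1, and Itga1 was 1.68-fold higher in replicate 2 (1.59 to 1.78), within the bound. Reads that match several of the related leukocyte alphas were divided by the authors' model, and the deposited credibility bounds of Itgad were wide, at 0.418 to 1.02 TPM in replicate 1 and 0.227 to 0.873 TPM in replicate 2.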

How the data were processed

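PolyA RNA of 2 subcutaneous fat libraries was sequenced as stranded paired reads of 76 nt, per the labels. Tables of genes and of transcripts were deposited with an expected count per feature, for which the authors divided reads matching several features. They also hold the authors' TPM (relative to transcript length and to the sum over all features, spike-ins included), the authors' FPKM, credibility bounds of TPM of unstated level, and, for transcripts, the deposited percent of the gene's TPM. Reads were aligned to transcripts of mm10 with GENCODE M4, per the deposited notes; columns are those RSEM writes. The sources used here do not say whether counting used strand, so genes overlapped by antisense transcripts are uncertain. Tables on build mm9 were not used here.

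Symbols were matched by gene identifier, and positions and transcript structures came from GENCODE release M21 on GRCm38, where 196 of the 200 transcripts of the 43 genes matched and 184 had the same length. Spike-ins, 2.10% and 2.02% of counts in replicates 1 and 2, stayed out of library sizes. Before scaling, expected counts were rounded to integers; TMM factors (1.20 and 0.837) came from edgeR 4.0.16 in R 4.3.3. Each 95% interval treats replicate 1's part of a gene's summed count as a binomial share (exact Clopper-Pearson, scipy 1.17.1), shifted by the scaling. They and the limit of 3 counts cover counting error only. Simulated libraries were drawn with counting (Poisson) error only, around a level that unchanged genes shared. In these, 100% of 200 genes changed by 4-fold were recovered, with 0 others called, of 13415 genes run. The simulation held no spread between samples, so it checks the calculation and says nothing about calls under such spread. Levels are mean ± SD over both libraries. Alternatives covered scaling by DESeq2 1.42.0, by spike-in RNA and by total count, minimums of count and TPM, posterior mean values, pseudocounts of 0.1 and 1, and single transcripts; the last was added after the data were seen. Every gene that the rule on symbols selects may be named, and of each further list the 4 members of highest mean TPM and every member over 2-fold apart; markers and others were named for their role. Some of these genes are not reported here. The genes and lists were chosen with earlier results of these data known.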

Additional observations from a re-analysis of the deposited data

How the results depend on the processing

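DESeq2 size factors and posterior mean counts left all 41 ratios on the same side of the bound. Scaling by total count called 17 of 41 genes on the replicate 1 side (22.3% of all genes tested), and on the replicate 2 side 1 gene was called by total count and 1 by spike-in scaling; at a minimum count of 500, 7 of 33 were higher in replicate 1, where all genes had 8.93% there and 11.4% on the replicate 2 side. The median log2 ratio was 0.95 for integrin genes and 0.95 for laminin and linker genes by total count, 0.89 and 0.90 by spike-in scaling, 0.24 and 0.33 at a minimum count of 500, 1.09 and 0.89 from TPM with a pseudocount of 0.1, and 0.91 and 0.88 with a pseudocount of 1. TPM keeps the shift that TMM factors remove. With a TPM minimum of 5, 22 genes passed in both libraries, against 36 at 1. By share of counts in place of TPM, Itga6-203 held 43.8% of its gene, against 51.6%, and Agrn-206 held 65.0%, against 45.0%. Leaving out either library moved the number of genes at a TPM of 1 between 36 and 40. The share of the gene that led its class by the mean of both libraries then ranged from 37.1% to 58.8% for Lama4, 69.1% to 76.3% for Lamb2, 82.6% to 96.7% for Lamc1, 15.7% to 39.1% for Itga7 and 40.3% to 60.4% for Itgb5. In replicate 1 alone, Lama4 and Itga7 did not lead. No called ratio changed sign under any of the 4 alternatives run on single genes. With 1 library a side, depth limits the ratios of Itgb6 and Lama1, which rest on 2 and 11 counts in replicate 2, and the split of a gene's reads among transcripts limits TPM where short transcripts are annotated. No paired analysis was possible because the series holds 1 group, so no replicate number is shared between groups.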
